A study of Homo sapiens with 4 samples.

Results

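The ERBB receptor tyrosine kinases EGFR, ERBB2, ERBB3 and ERBB4, together with ERRFI1, LRIG1 and LRIG3, which restrain them or belong to the same family as a restrainer, were followed in Hs746T cells after suppression of MET. Hs746T is an established gastric carcinoma cell line with an amplified MET gene that also carries the exon-skipping MET mutation, and all 4 conditions shared this background. The members were all probes other than controls whose RefSeq record belongs to 1 of these 7 genes, which gave 12 probes of 34127 on the array, and 7 of 18755 genes with a named probe measured on every array. The rule for the members uses no measured value, although it was set with earlier results of these data known. Total RNA was hybridised to single-colour Agilent human V2 arrays, with 1 array each for cells given DMSO, the vehicle, cells given PHA665752, a small-molecule inhibitor of the MET kinase, cells transfected with sc siRNA, a scrambled control, and cells transfected with MET siRNA. The dose and duration of PHA665752 for these arrays are not given in the sources used here, and the MET siRNA was a single sequence, the most effective of those the authors tried. With 1 array per condition and all arrays on 1 slide, neither a test nor a spread between replicates was possible, which bounds the precision of every value.

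ERBB receptors bind growth factors outside the cell, pair with one another, and pass the signal through the MAPK and PI3K pathways. EGFR binds EGF, TGFA, AREG and related ligands, ERBB2 has no known ligand and serves as a partner, ERBB3 binds neuregulins but has little kinase activity of its own, and ERBB4 binds neuregulins and has an active kinase. ERRFI1, also known as MIG6, binds the kinase domain of active ERBB receptors and blocks it, and its transcription is known to be induced by growth factor signalling through MAPK, so that it acts as a feedback inhibitor. LRIG1 is a transmembrane protein that promotes the degradation of ERBB receptors and of MET, and LRIG3 is its relative. In cancers driven by MET, ERBB receptors are known as a route by which cells can keep the same downstream pathways active, and the question here was whether their transcripts and those of their restrainers moved when MET was suppressed.

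The inhibitor array was set against the DMSO array and the MET siRNA array against the sc siRNA array, and these pairs share no array. The sc siRNA array was also compared with the DMSO array, as the only measure of how far arrays without MET suppression differed. This pair shares a control array with each of the others. Because sc siRNA cells were transfected and DMSO cells were given vehicle, it also holds any response to transfection, which cannot be told apart from other differences between the arrays. All ratios are log2 ratios of processed signals, each taken after the 75th percentile of its own array was subtracted. A probe that Feature Extraction, the scanner software, marked as well above background on 1 of the paired arrays could be given a bound. No ratio was given to a probe marked on neither, or whose brighter signal did not exceed the level the bound is taken against. The brightest probe stood for each gene. Over genes, the median log2 ratio was 0.07 in the inhibitor pair, -0.02 in the siRNA pair and -0.01 in the control pair, and the robust spread over probes was 0.68, 0.25 and 0.30 in the same order. The 75th percentile signals were 990.1 in DMSO-treated cells, 853.5 under PHA665752, 830.8 in sc siRNA cells and 858.2 in MET siRNA cells. Well above background were 61.1% of probes on the MET siRNA array and 67.4% to 68.2% on the others. The lowest signal with this mark was 17.4 on the MET siRNA array and 10.2 to 12.3 on the others. The labelled cell type was checked with marker lists fixed with the other lists. Of 6 epithelial markers, 6 were well above background on the first 3 arrays and 5 on the MET siRNA array, where CDH1, the epithelial cadherin, was not. The summed epithelial signal ran from 80935 with PHA665752 to 131987 with DMSO, a difference carried by CLDN4 and KRT18, while the log2 ratios of KRT8, KRT19, EPCAM and CDH1 were above 0 and the list median was 0.06. Of 4 measured mesenchymal markers all were well above background, with sums from 8589 to 15795, and of the gastric mucosa markers only TFF1 was, with sums from 69.0 to 94.8 over the 3 measured. Of the leukocyte markers, CD3E was not well above background, while PTPRC ran from 22.7 to 37.8 and CD14 from 113 to 140.1 over the arrays. The 3 endothelial markers were all well above background and went different ways with PHA665752, with log2 ratios of -2.39 for PECAM1, 2.77 for VWF and -0.21 for CDH5, and sums from 553 to 1965 over the arrays that PECAM1 largely set. The part of such shifts in the results below was not tested.

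MET, the suppressed gene, was measured by a probe (A_23_P359245, NM_000245) with a signal of 221451 in DMSO-treated cells, 100492 under PHA665752, 190010 in sc siRNA cells and 77853 in MET siRNA cells. Its log2 ratio was -0.93 with PHA665752, which acts on the kinase and not on the transcript directly, and -1.33 with MET siRNA, against 0.03 between the controls. The array labelled as treated with MET siRNA was thus the lowest in MET.

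Of the 7 genes, 2 differed by more than 2-fold with PHA665752. ERBB4 was higher and ERRFI1 was lower, while 13.1% of 14322 genes were more than 2-fold higher and 8.04% more than 2-fold lower in the same pair. With MET siRNA 0 of the 7 passed 2-fold in either direction, where 2.04% of 13647 genes were higher and 0.696% lower. Between the controls 0 of the 7 passed 2-fold, where 2.89% of 14274 genes were higher and 1.16% lower. These counts are descriptions, and a 2-fold change seen once has no replicate check. The 7 genes had a median log2 ratio of 0.50 in the inhibitor pair, 0.02 in the siRNA pair and 0.01 in the control pair. Because total RNA of whole cultures was measured, a lower signal cannot be told apart between fewer cells expressing a gene and less RNA per cell.

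Letters upstream of the transcription starts are shown for the members with the largest PHA665752 ratios in each direction, ERRFI1 among those that were lower and ERBB4 and ERBB2 among those that were higher. They come from RefSeq promoter windows of GRCh38.p14, which held 11 windows for 6 of the 7 genes, and each run gives the 250 bases before the start, 5′ to 3′ on the strand of the gene. Capitals mark a match to 1 of the 5 motifs searched. The ERRFI1 run is chr1:8026310-8026559 on the minus strand, the ERBB4 run chr2:212538803-212539052 on the minus strand and the ERBB2 run chr17:39687844-39688093 on the plus strand.
ERRFI1: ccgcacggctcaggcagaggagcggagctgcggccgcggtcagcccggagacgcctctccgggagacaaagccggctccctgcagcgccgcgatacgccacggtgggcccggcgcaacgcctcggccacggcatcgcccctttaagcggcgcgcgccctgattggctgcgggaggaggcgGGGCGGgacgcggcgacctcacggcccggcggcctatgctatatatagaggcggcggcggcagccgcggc
ERBB4: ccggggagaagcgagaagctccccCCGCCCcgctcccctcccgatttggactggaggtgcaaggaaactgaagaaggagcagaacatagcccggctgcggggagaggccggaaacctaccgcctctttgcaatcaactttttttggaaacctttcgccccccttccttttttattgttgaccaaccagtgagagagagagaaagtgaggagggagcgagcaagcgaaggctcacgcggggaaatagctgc
ERBB2: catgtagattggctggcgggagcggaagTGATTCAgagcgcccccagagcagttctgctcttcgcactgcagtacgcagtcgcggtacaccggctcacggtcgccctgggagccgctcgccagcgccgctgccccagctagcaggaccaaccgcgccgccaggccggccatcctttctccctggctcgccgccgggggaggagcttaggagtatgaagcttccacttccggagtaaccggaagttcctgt
The motifs were searched on both strands, as the FOXO core TGTTTAC, AP-1 as TGANTCA, the E-box CACGTG, CRE as TGACGTCA and the GC box GGGCGG. Over 35116 promoter windows of the same length, the FOXO core was found in 2.98%, AP-1 in 6.57%, the E-box in 6.34%, CRE in 1.65% and the GC box in 42.6%. In the ERRFI1 run the GC box lay 70 to 65 bases before the start, and in the ERBB4 run it lay 226 to 221 bases before the start, read on the other strand. In the ERBB2 run the capitals are an AP-1 match, TGATTCA, 222 to 216 bases before the start. Over the 11 windows of the 6 genes, the GC box was found in 7, AP-1 in 3, of EGFR, ERBB2 and LRIG1, and the E-box in 1, of LRIG3. The letters of the FOXO core and of CRE were in 0 of the 11. Some genes had several windows, and windows of LRIG1 overlap in part, so the same match can count again. The AP-1 matches of EGFR and LRIG1 lay in windows of other starts than those with their GC boxes. The window counts therefore cannot be set directly against the shares over all windows. A match is a match of letters and no evidence of binding.

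ERBB2 was higher with PHA665752, by less than 2-fold. Its single probe (A_23_P89249, NM_001005862), spotted 10 times on each array, had a signal of 1691 in DMSO-treated cells, 2509 under PHA665752, 1299 in sc siRNA cells and 1509 in MET siRNA cells. Its spots ran from 1582 to 1781 with DMSO and from 2441 to 2604 with PHA665752, and from 1231 to 1341 with sc siRNA and 1442 to 1577 with MET siRNA. After scaling, the spots of the treated and control arrays did not overlap in the inhibitor pair or in the siRNA pair, and they did between the controls. Spots of 1 array share their RNA and measure spot noise only. The log2 ratio was 0.78 with PHA665752, a 1.72-fold higher level, 0.17 with MET siRNA and -0.13 between the controls. Its error of 0.20 comes from Feature Extraction's estimate for each spot, about 10% of the signal on each array. At 0.17 the siRNA ratio was below this error. The errors given for the other bright probes rest on nearly the same 10% and measure no spread between cultures. The siRNA ratio turned to -0.13 when arrays were scaled to the median of their probes well above background, which shifted all ratios of that pair by -0.30. Among genes, 81.9% had a lower ratio than ERBB2 in the inhibitor pair and 76.1% in the siRNA pair, so that its place was well inside the range of other genes.

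ERBB3 was read by 3 probes. The brightest (A_33_P3211569, NM_001005915), annotated with a record for a short secreted form, had signals of 108 in DMSO-treated cells, 149 under PHA665752, 90.8 in sc siRNA cells and 95.2 in MET siRNA cells. Its log2 ratio was 0.69 with PHA665752, with an error of 0.21, and it stood at 0.02 with MET siRNA and 0.01 between the controls. The second probe (A_23_P349416, NM_001982), annotated with the full-length record, had signals of 15.4 with DMSO and 44.7 with PHA665752, and signals of 7.49 with sc siRNA and 14 with MET siRNA that were not well above background. It gave a log2 ratio of 1.75 with PHA665752, 3.37-fold higher, with a larger error of 0.34, no siRNA ratio, and a bound of -0.34 between the controls. The lowest signals among probes well above background were 10.8 with DMSO and 12.3 with PHA665752, so the DMSO value of this probe lay near the limit. A further probe of the same record (A_33_P3280471) read 4.16, 4.30, 2.67 and 8.39 on the DMSO, PHA665752, sc siRNA and MET siRNA arrays, not well above background on any. Both measured ERBB3 probes were thus higher with PHA665752 and by different amounts, and the brightest probe was not past 2-fold.

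ERBB4 was the only receptor whose brightest probe passed 2-fold with PHA665752, and it was dim. The probe (A_32_P183765, NM_005235) had signals of 46.0 in DMSO-treated cells, 82.1 under PHA665752, 49.6 in sc siRNA cells and 53.3 in MET siRNA cells, each marked as well above background. The PHA665752 array stood above the other 3. The log2 ratio was 1.05 with PHA665752, 2.07-fold higher, with an error of 0.22, and 87.8% of genes had a lower one. With MET siRNA it was 0.06, within its error of 0.23, and between the controls it was 0.36, beyond its error of 0.23, where 86.7% of genes had a lower ratio. The inhibitor ratio came under 2-fold in 4 of the 10 other ways of processing, at 0.80 with the 50th percentile, 0.96 with the median of probes well above background, 0.77 with quantile normalization and 0.64 with normexp background correction. A second ERBB4 probe (A_33_P3211558) read 2.47 to 3.81 and was not well above background on any array.

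EGFR differed from the other receptors in direction at its brightest probe. This probe (A_23_P215790, NM_005228), spotted 10 times, had signals of 1147 in DMSO-treated cells, 789.6 under PHA665752, 994 in sc siRNA cells and 879 in MET siRNA cells. After scaling, the spots of the treated arrays lay below those of their controls without overlap in both pairs, while those of the controls overlapped each other. The log2 ratio was -0.32 in the inhibitor pair, -0.23 in the siRNA pair and 0.05 in the control pair, each with an error of 0.20, and 27.1% and 20.2% of genes had a lower ratio than EGFR in the inhibitor and siRNA pairs. The other EGFR probes are annotated with records of short forms that lack the kinase domain, and whether they read only those forms cannot be told from the files. The first of these (A_33_P3351944, NM_201283) had signals of 471 in DMSO-treated cells, 539 under PHA665752, 350.3 in sc siRNA cells and 375 in MET siRNA cells, with log2 ratios of 0.41, 0.05 and -0.17 for the inhibitor, siRNA and control pairs. The dimmer one (A_33_P3351955, NM_201282) had signals of 46.6, 31.3, 40.6 and 31.1 in the order DMSO, PHA665752, sc siRNA and MET siRNA, with log2 ratios of -0.36, -0.43 and 0.05 and errors of 0.24 to 0.30. The 3 EGFR probes therefore disagreed in direction with PHA665752, and the siRNA ratio was near 0 at 1 of them.

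**Figure D1:**
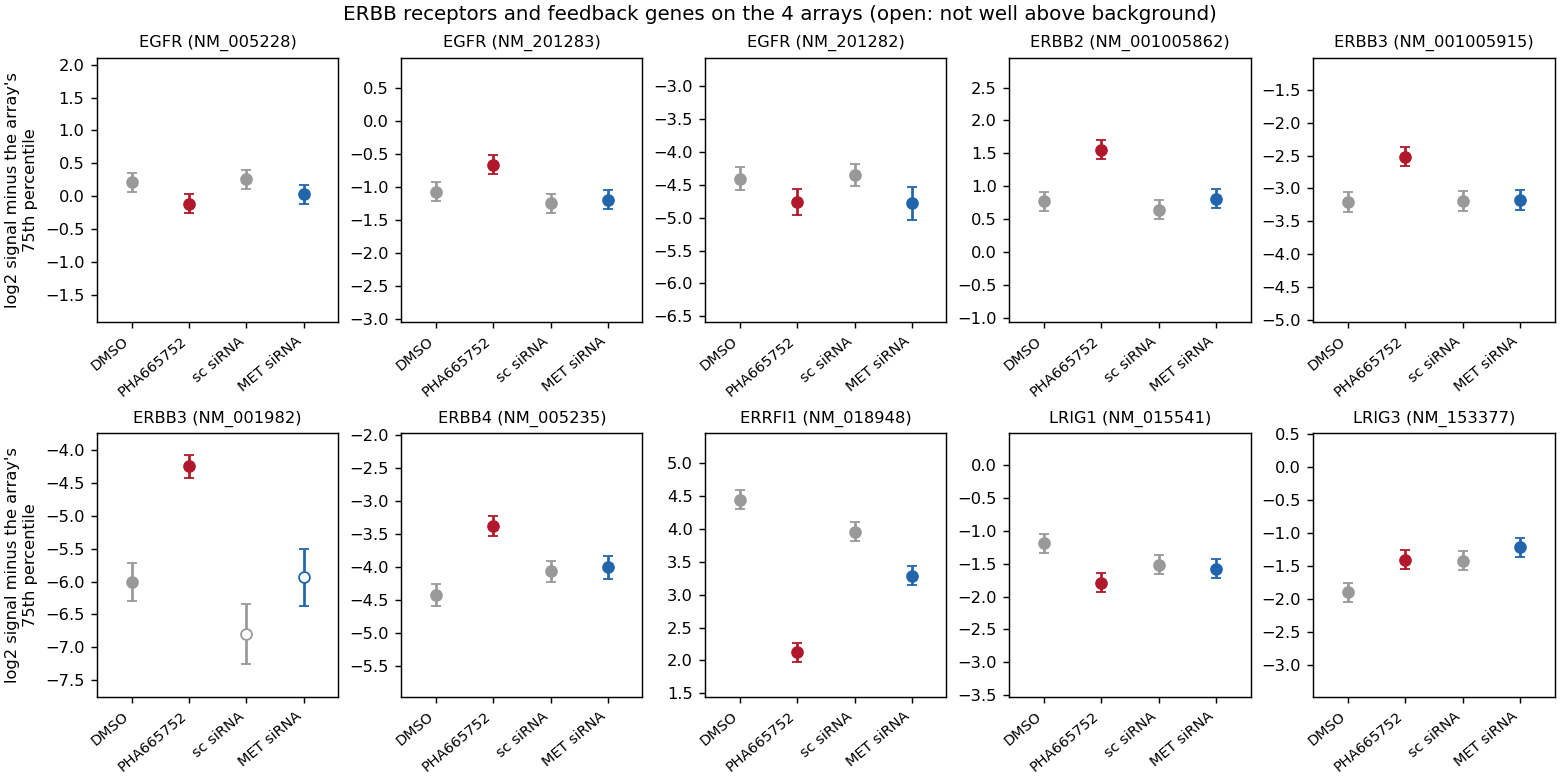
Log2 processed signal minus the array's 75th percentile (y axis, spanning 4 log2 units in every panel) on the DMSO, PHA665752, sc siRNA and MET siRNA arrays (x axis), for the 10 member probes that rose above background on 1 array or more. Points are single arrays, bars are Feature Extraction's error for a spot and open points are not well above background. ERRFI1 is highest with DMSO and lowest with PHA665752, while ERBB2, ERBB3 and ERBB4 are highest with PHA665752.

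ERRFI1, the feedback inhibitor of ERBB kinases, had the ratio farthest from 0 of the 7 genes in both treatments. Its single probe (A_23_P46470, NM_018948) had 1 spot on each array, so neither another probe nor repeated spots could check its values. The signals were 21437 in DMSO-treated cells, 3718 under PHA665752, 12874 in sc siRNA cells and 8368 in MET siRNA cells. Both treated arrays lay below both controls, and the PHA665752 array lay below the MET siRNA array. The log2 ratio was -2.31 with PHA665752, 4.97-fold lower, and -0.67 with MET siRNA, 1.59-fold lower, each with an error of 0.20. Between the controls the ratio was -0.48, so that the siRNA ratio was only somewhat farther from 0 than the difference between the 2 control arrays. Only 1.16% of genes had a lower ratio than ERRFI1 with PHA665752 and 2.04% with MET siRNA, and 7.0% did between the controls. Over the 10 other ways of processing the ratio kept its sign, at -2.56 to -2.12 with PHA665752 and -0.97 to -0.60 with MET siRNA. The difference between the inhibitor and siRNA ratios has no replicate error and was not tested.

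LRIG1, which promotes receptor degradation, was lower with PHA665752. Its probe (A_23_P109636, NM_015541), spotted 10 times, had signals of 433 in DMSO-treated cells, 247 under PHA665752, 289.5 in sc siRNA cells and 287 in MET siRNA cells. The DMSO array stood above the other 3, and after scaling its spots overlapped neither those of PHA665752 nor those of sc siRNA, whereas the spots of sc siRNA and MET siRNA overlapped. The log2 ratio was -0.60 with PHA665752, 1.51-fold lower, -0.06 under the siRNA and -0.33 between the controls, each with an error of 0.20 to 0.21. In the inhibitor pair 16.7% of genes had a lower ratio. LRIG3 went the other way. Its probe (A_23_P47885, NM_153377) had signals of 265 in DMSO-treated cells, 323 under PHA665752, 311 in sc siRNA cells and 368 in MET siRNA cells, the DMSO array being the lowest. Its log2 ratio was 0.50 for the inhibitor, 1.41-fold higher, 0.20 for the siRNA and 0.48 between the controls, so that the inhibitor ratio was about as large as the difference between the control arrays. The siRNA ratio of LRIG3 was -0.10 with scaling to the median of probes well above background.

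**Figure D2:**
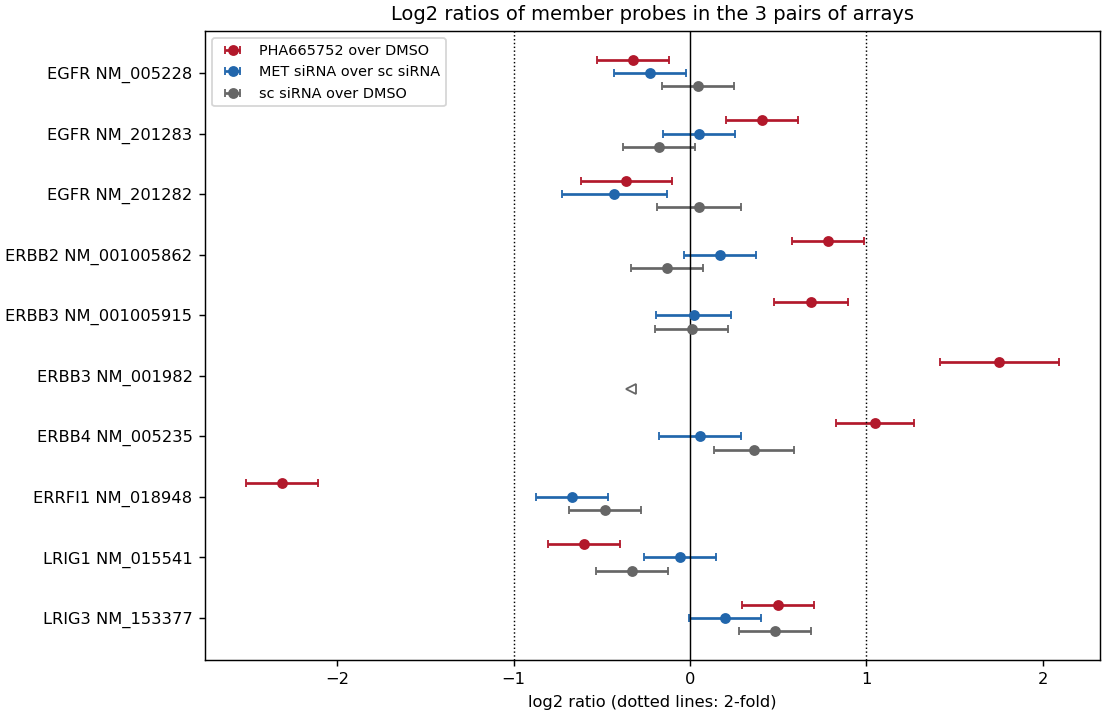
Log2 ratio (x axis) of each of these member probes (y axis) for PHA665752 over DMSO, MET siRNA over sc siRNA and sc siRNA over DMSO, with bars for Feature Extraction's error and dotted lines at 2-fold. The open triangle is a bound. ERRFI1 at -2.31 and the dim ERBB3 probe at 1.75 lie farthest from 0, both with PHA665752.

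With PHA665752, the order of the genes at their brightest probes from lowest to highest ratio was ERRFI1, LRIG1, EGFR, LRIG3, ERBB3, ERBB2 and ERBB4. The steps from LRIG3 to ERBB3 and from ERBB3 to ERBB2 were smaller than the errors, and the quartiles of all genes in this pair, -0.37 and 0.58, held EGFR and LRIG3 between them. With MET siRNA, ERRFI1 was again the lowest and EGFR the next, and the other 5 genes lay between -0.06 and 0.20. With scaling to the median of probes well above background, the siRNA ratios of ERBB2, ERBB3, ERBB4 and LRIG3 were below 0. The median of all genes in the siRNA pair was -0.31 in that setting, so the sign change came with a shift of the whole pair. Over the 10 alternatives the siRNA sign turned in 1 for ERBB2, ERBB4 and LRIG3, and in 3 for ERBB3. No direction that holds in every setting can therefore be given for these genes.

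**Figure D3:**
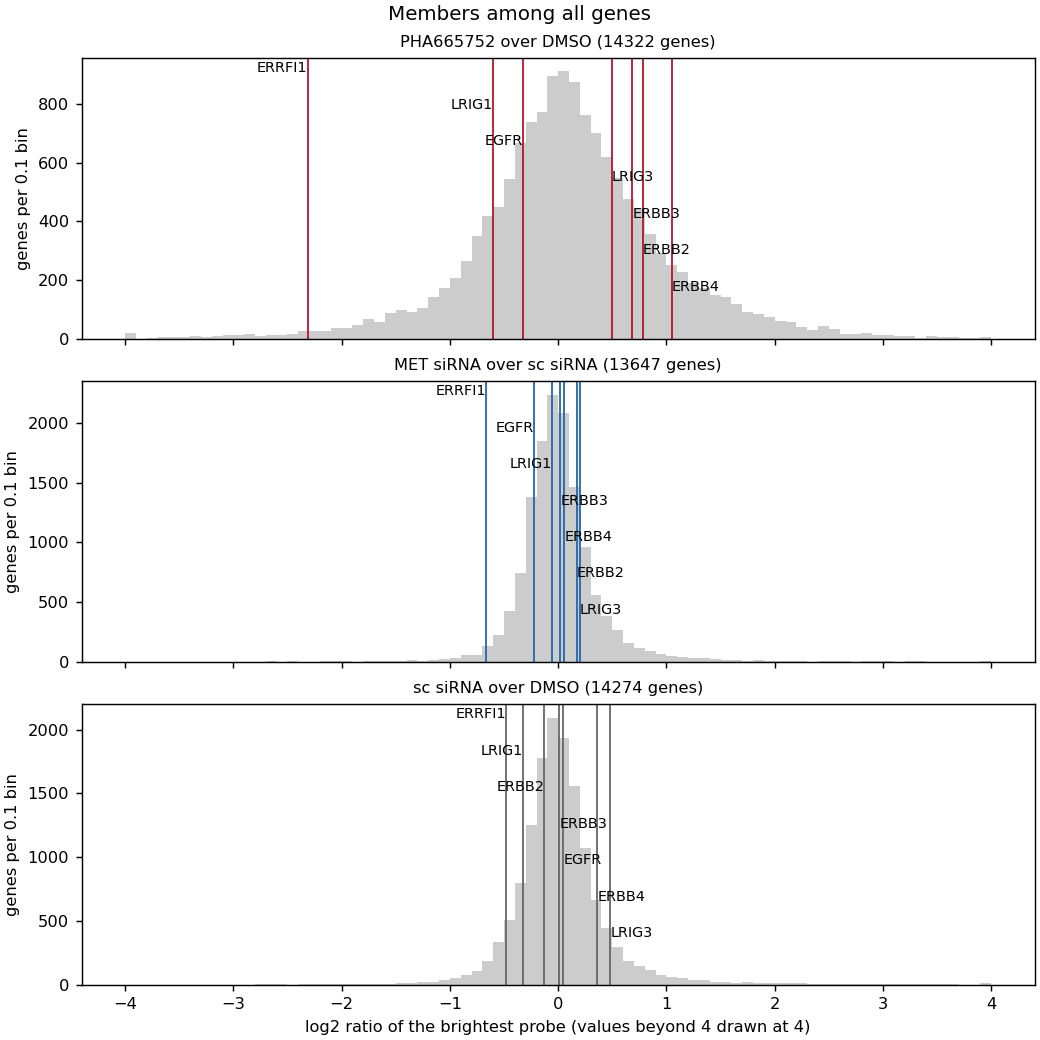
Number of genes per 0.1 bin (y axis) by log2 ratio of the brightest probe (x axis) in the 3 pairs, with coloured lines for the 7 members. ERRFI1 lies in the lower tail in the inhibitor and siRNA pairs, and the receptors lie within the body of the distribution, with ERBB4 farthest out at 1.05.

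Genes with a pattern like a member's were sought over the 4 arrays, by the Euclidean distance between log2 signals centred on each gene's mean, among 13074 genes well above background on all arrays. Only ERBB4 and ERRFI1 spanned at least 1 log2 unit over the arrays. The genes nearest to ERRFI1 were XDH at 0.0814, EPB41L4B at 0.13 and LRRC8C at 0.147, with PHA665752 ratios of -2.40, -2.32 and -2.17. XDH, the gene of xanthine dehydrogenase, had signals of 1575 in DMSO-treated cells, 258 under PHA665752, 959.6 in sc siRNA cells and 595 in MET siRNA cells. The nearest to ERBB4 were CD53 at 0.0355, FBXO44 at 0.0563 and UBAP1L at 0.0594. All these genes were picked on the same 4 arrays, so like ratios follow from the choice and are no evidence of shared regulation.

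Of 11 ERBB ligand genes, 8 had a ratio, and EPGN, NRG3 and NRG4 were not well above background on any array. With PHA665752, 3 of the 8 were more than 2-fold lower and 0 higher, where 8.04% and 13.1% of all genes were. The list median was -0.73, against 0.07 over all genes, though it was 0.0624 when ligands not well above background were kept. AREG, an EGFR ligand, had signals of 1276 in DMSO-treated cells, 426.5 under PHA665752, 1250.0 in sc siRNA cells and 527 in MET siRNA cells, and its log2 ratio was -1.37 in the inhibitor pair, -1.29 in the siRNA pair and 0.22 in the control pair. It was the only ligand past 2-fold with MET siRNA, where 0.696% of all genes were more than 2-fold lower and the list median was -0.21. HBEGF, which binds EGFR and ERBB4, had ratios of -1.19 for the inhibitor and -0.38 for the siRNA. NRG2, a neuregulin that binds ERBB3 and ERBB4, had signals of 1349 in DMSO-treated cells, 324 under PHA665752, 751 in sc siRNA cells and 539 in MET siRNA cells, with ratios of -1.84 and -0.52 and -0.59 between the controls. NRG1, the neuregulin best known for ERBB3, stood at -0.79 in the inhibitor pair and -0.09 in the siRNA pair, EREG at -0.68 and -0.23, and TGFA at 0.06 and -0.18. EGF, at 0.65 and 0.50, and BTC, at 0.41 and 0.25, were above 0 in both treatments, and BTC was the 1 ligand past 2-fold between the controls, at 1.24. The neuregulin genes with a ratio were thus lower with PHA665752 while the brightest probes of ERBB3 and ERBB4 were higher.

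The list of adaptors and proximal signalling, among them GRB2, SHC1, SOS1 and the RAS genes, moved little. Of 19 genes 1 was more than 2-fold higher and 0 lower with PHA665752, where 13.1% and 8.04% of all genes were. The list median was 0.02. The 1 gene was GAB2, a docking protein for PI3K and SHP2, at 1.16 with PHA665752 and 0.38 with MET siRNA. With MET siRNA 0 of 19 passed 2-fold, where 2.04% of all genes were higher and 0.696% lower, and the median was -0.01. The same shares of all genes apply to the turnover and ligand release lists that follow. Of 17 turnover genes and phosphatases 16 had a PHA665752 ratio, with 1 higher, 0 lower and a median of 0.37. This 1 was CBLB, a ubiquitin ligase that marks receptors for degradation, with signals of 264.5 in DMSO-treated cells, 942 under PHA665752, 434 in sc siRNA cells and 614 in MET siRNA cells and log2 ratios of 2.05, 0.46 and 0.97 in the inhibitor, siRNA and control pairs. With MET siRNA 0 of 15 turnover genes passed 2-fold, with a median of -0.10. The proteases and regulators that release ligands, 5 of 6 with a ratio, had 0 past 2-fold in either treatment, with medians of 0.36 for the inhibitor and 0.04 for the siRNA.

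The genes known to be transcribed in response to MAPK signalling, downstream of both MET and ERBB receptors, were mostly lower, as ERRFI1 was. Of 16, 13 were more than 2-fold lower and 1 higher with PHA665752, where 8.04% and 13.1% of all genes were, with a median of -2.01. With MET siRNA 3 were lower and 0 higher, where 0.696% and 2.04% of all genes were, with a median of -0.65. Between the controls 1 was lower and 0 higher, where 1.16% and 2.89% of all genes were, with a median of -0.12. SPRY4, an inhibitor of receptor signalling, had signals of 475 in DMSO-treated cells, 21.7 under PHA665752, 399 in sc siRNA cells and 185 in MET siRNA cells, and log2 ratios of -4.24 and -1.16 for the inhibitor and siRNA pairs. DUSP6, the phosphatase of ERK, stood at -3.27 and -1.14, and EPHA2, an ephrin receptor, at -3.36 and -1.10. ETV5, a transcription factor of the PEA3 group, stood at -3.37 and -0.66, FOSL1, of the AP-1 family, at -3.36 and -0.79, and ETV4 at a bound of -3.07 and a ratio of -0.64. EGR1, an immediate-early transcription factor, was the 1 gene more than 2-fold higher with PHA665752, at 2.94, against 0.08 with MET siRNA, and IER3 stood at 0.78 and 0.19.

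The next list held genes known to be kept down by PI3K and AKT signalling through FOXO factors and related routes. Of 11 genes 10 had a PHA665752 ratio, with 5 more than 2-fold higher, 0 lower and a median of 0.98. In that pair 13.1% of all genes were higher and 8.04% lower. Of 9 with a MET siRNA ratio 2 were higher and 0 lower, with a median of 0.35, where 2.04% and 0.696% of all genes were. Between the controls 0 of 9 passed 2-fold, where 2.89% of all genes were higher and 1.16% lower. INSR, the insulin receptor, had signals of 315 in DMSO-treated cells, 972 under PHA665752, 197 in sc siRNA cells and 454 in MET siRNA cells. Its ratios were 1.84 and 1.16. It was the only receptor of the list with a ratio, as IGF1R had no named probe measured on every array. TXNIP, a regulator of redox state and glucose uptake, stood at 3.66 and 1.51, SESN3, of the sestrin family, at 1.30 and 0.80, and BCL6, a transcriptional repressor, at 1.06 and 0.75. PIK3IP1, an inhibitor of PI3K, gave a bound of 2.89 with the inhibitor and no siRNA ratio. SESN1 stood below 0 in both, at -0.28 and -0.43, and IRS1 and IRS2 stood at 0.50 and 0.20 with the inhibitor and at -0.32 and -0.07 with the siRNA.

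**Figure D4:**
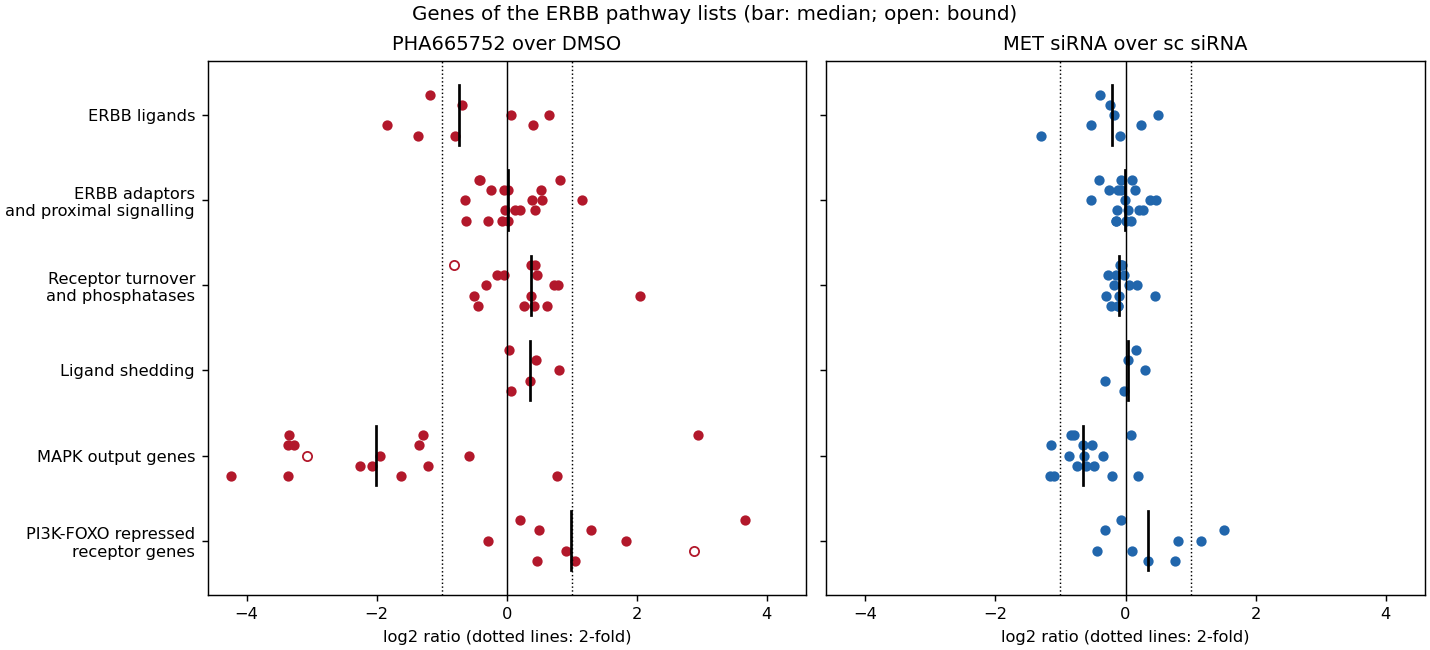
Log2 ratios (x axis) of the genes of 6 ERBB pathway lists (y axis) for PHA665752 over DMSO and MET siRNA over sc siRNA, each point a gene, with black bars for list medians, open points for bounds and dotted lines at 2-fold. The MAPK output genes lie mostly below 0 in both pairs, with medians of -2.01 and -0.65, and the PI3K-FOXO list mostly above 0 with PHA665752.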

How the data were processed

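Total RNA of Hs746T cells was measured on 4 single-colour arrays. The authors deposited spot tables written by the Feature Extraction software (the headers give version 11.5.1.1, the methods an earlier one), whose processed signal is a linear intensity for each spot after background subtraction, without normalization between arrays. The deposited series matrix holds the same intensity for all 33128 probes spotted once, within 0.06, and was used as an alternative. Each array had 43118 spots other than controls. Spots marked as outliers by the software were left out, 5.58% on the MET siRNA array and 1.69% to 2.21% on the others. On all arrays 0 spots were saturated. Spots of a probe were averaged as log2 values, and the array's 75th percentile was subtracted. A probe counted as well above background if this mark was on no fewer than 50% of its usable spots. A bound was taken against the higher of the dim probe's own signal and the lowest signal well above background. None was given where the brighter signal did not exceed that level.

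Probes were named through RefSeq accessions (GRCh38.p14, used for names and promoter windows alone because the array annotation follows hg19), which gave a symbol to 25771 probes. The genes named were the 7 members at every probe, MET, up to 6 genes past 2-fold per pathway list and treatment, 5 ligands and the 3 genes nearest to a member. The genes EGF, BTC, EGR1, IER3, SESN1, IRS1 and IRS2 and the cell type markers fall outside this rule and were named after their values were seen. The members and lists were chosen with earlier results of these data known. Some genes of the lists are not reported here. A change of 0.30 log2, the robust spread of the controls over probes, was the limit for calling a value moved in the 10 alternatives. Python 3.11.15, numpy 2.4.6, pandas 2.3.3, matplotlib 3.10.9, R 4.3.3 and limma 3.58.1 (normexp) were used, and the ratio rules were tested on simulated data.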

Additional observations from a re-analysis of the deposited data

How the results depend on the processing

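Each condition had 1 array, so no replicate could be left out. No paired analysis was possible because each condition had 1 array. The alternatives were scaling to the 50th percentile or to the median of probes well above background, quantile normalization, normexp, plain subtraction with a floor of 5, ignoring background outlier marks, dropping bounds, keeping dim probes, taking the median of each gene's probes, and the series matrix values. The number of members past 2-fold with PHA665752 was 1 in place of 2 with the 50th percentile, the median of probes well above background, quantile normalization and normexp, since ERBB4 came under 2-fold, and it was 3 with the median of each gene's probes, where ERBB3 stood at 1.22. The median over the members with MET siRNA was -0.28 with the median of probes well above background, in place of 0.02. That scaling shifted the median of all genes in the siRNA pair by -0.30, and the 50th percentile shifted that of the inhibitor pair by -0.25. The ERBB ligand median with PHA665752 turned to 0.0624 without a filter on dim probes, where ligands not well above background enter. With the median of probes well above background, 7 MAPK output genes in place of 3 were past 2-fold with MET siRNA and 1 gene of the PI3K-FOXO list in place of 2, and with normexp 1 and 1 were. With normexp 0 MAPK output genes in place of 1 passed 2-fold between the controls and 3 genes of the PI3K-FOXO list in place of 5 with PHA665752. Turnover genes past 2-fold with PHA665752 were 2 in place of 1 with the 50th percentile, quantile normalization, plain subtraction and dim probes kept, and 1 in place of 0 between the controls with plain subtraction. With dim probes kept, 2 ligands in place of 1 and 1 turnover gene in place of 0 passed 2-fold with MET siRNA. With the 50th percentile, 0 adaptor genes in place of 1 did with PHA665752. Signals near the background limit the values of ERBB4 and of the full-length ERBB3 probe. The inhibitor ratios of all 7 genes kept their sign in all 10 alternatives.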
